A study of Mus musculus with 4 samples.

Results

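The 9 genes described here, Ppara, Cpt1a, Acadvl, Acadm, Hadha, Hadhb, Pdk4, Angptl4 and Slc16a1, belong to fatty acid oxidation and its control, out of 20832 genes that the array's probes could be named for. A probe was taken for a gene when the RefSeq accession of its target belonged to that gene. The 9 genes had 12 probes in all, 3 for Ppara, 2 for Cpt1a and 1 for each of the others, and the probe with the highest mean represented a gene with several. Every one of the 12 probes was well above background on all 4 arrays. Ketone body synthesis is switched on together with fatty acid oxidation, but none of the 9 encodes one of its enzymes, and those are described from a separate list.

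The tissue was the whole colon of C57BL/6J mice aged 14 weeks. STAP-2-/- mice, which lack the adaptor protein STAP-2, were compared with wild-type (WT) mice. Animals of both genotypes were given 1.75% DSS (dextran sulfate sodium), which damages the lining of the gut and is used to cause colitis in mice. The length of treatment is given as 3 days in one label and 7 days in another, and no colon without DSS was analysed here. RNA of 3 mice was pooled for each 1-colour Agilent array, with 2 arrays per genotype numbered 1 and 2. The titles call these biological replicates, and the labels do not say how the mice were assigned to pools or how the STAP-2-/- line was made. P-values therefore measure the spread between these 4 samples.

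Colonocytes draw much of their energy from butyrate and other fatty acids that they oxidise in mitochondria. Long-chain fatty acids enter as carnitine esters and are shortened by acyl-CoA dehydrogenases and the trifunctional protein, and the acetyl-CoA made can be turned into ketone bodies. The nuclear receptor PPAR-alpha, with the retinoid X receptors, switches on many of these genes when fatty acids bind it. In other tissues PPAR-alpha targets are known to rise in fasting.

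Values are log2 of the processed signal relative to the 75th percentile of the array, so that 0 stands for the signal at that percentile. The percentile was 2280 and 2348 on the STAP-2-/- arrays and 2134 and 2215 on the WT arrays, and 68.4% to 70.5% of the spots were well above background. Stap2 itself was at -6.63 and -7.72 in STAP-2-/- colons, not well above background, against 2.92 and 2.98 in WT colons, so each array carried the level its label calls for. The WT mean was 720.9-fold above the dimmest spots called well above background on the STAP-2-/- arrays. All 13 colonic epithelium markers found on the array were well above background on each of the 4 arrays. A single slide, scanned in a single run, carried the 4 hybridisations. The arrays numbered 2 were at positions 4 (STAP-2-/-) and 3 (WT) of that slide and the arrays numbered 1 at positions 2 (STAP-2-/-) and 1 (WT), so number and position cannot be told apart. Genotype and number are compared in turn, since the SD of the log2 differences over all genes was 0.655 between the STAP-2-/- arrays and 0.420 between the WT arrays, but 0.376 across genotypes for the arrays numbered 1 and 0.415 for those numbered 2.

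Between the genotypes, the fatty acid oxidation genes differed little. Ppara was the gene of the 9 that differed most, 1.39-fold higher in STAP-2-/- colons, while the dehydrogenase genes Acadvl and Acadm differed from WT by 1.01-fold and 1.03-fold. Of 15559 genes 0 (0%) passed the threshold of 0.05 for limma's adjusted p, and 326 (2.10%) had an unadjusted p under 0.05, none of them among the 9. The lowest adjusted p of any gene was 0.314, that of Stap2. By direction, 6 of the 9 were higher in STAP-2-/- colons and 3 were lower. The median log2 difference of the 9 was 0.045, against -0.0068 for all genes, and their median absolute difference was 0.091, against 0.12 for all genes. The members' median was 0.083 without STAP-2-/- 1, 0.14 without STAP-2-/- 2, 0.11 without WT 1 and 0.15 without WT 2. In 4 of the 9 both STAP-2-/- arrays were above both WT arrays, and in none were both below. Over all genes 24.9% had no overlap between the genotypes, 11.5% higher and 13.3% lower in STAP-2-/- colons. With 9 genes the count of 4 carries no test, and it was 3 with quantile or median scaling, with the percentile taken over probes above background, with normexp correction and in the authors' value table, because Acadvl then overlapped.

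**Figure D1:**
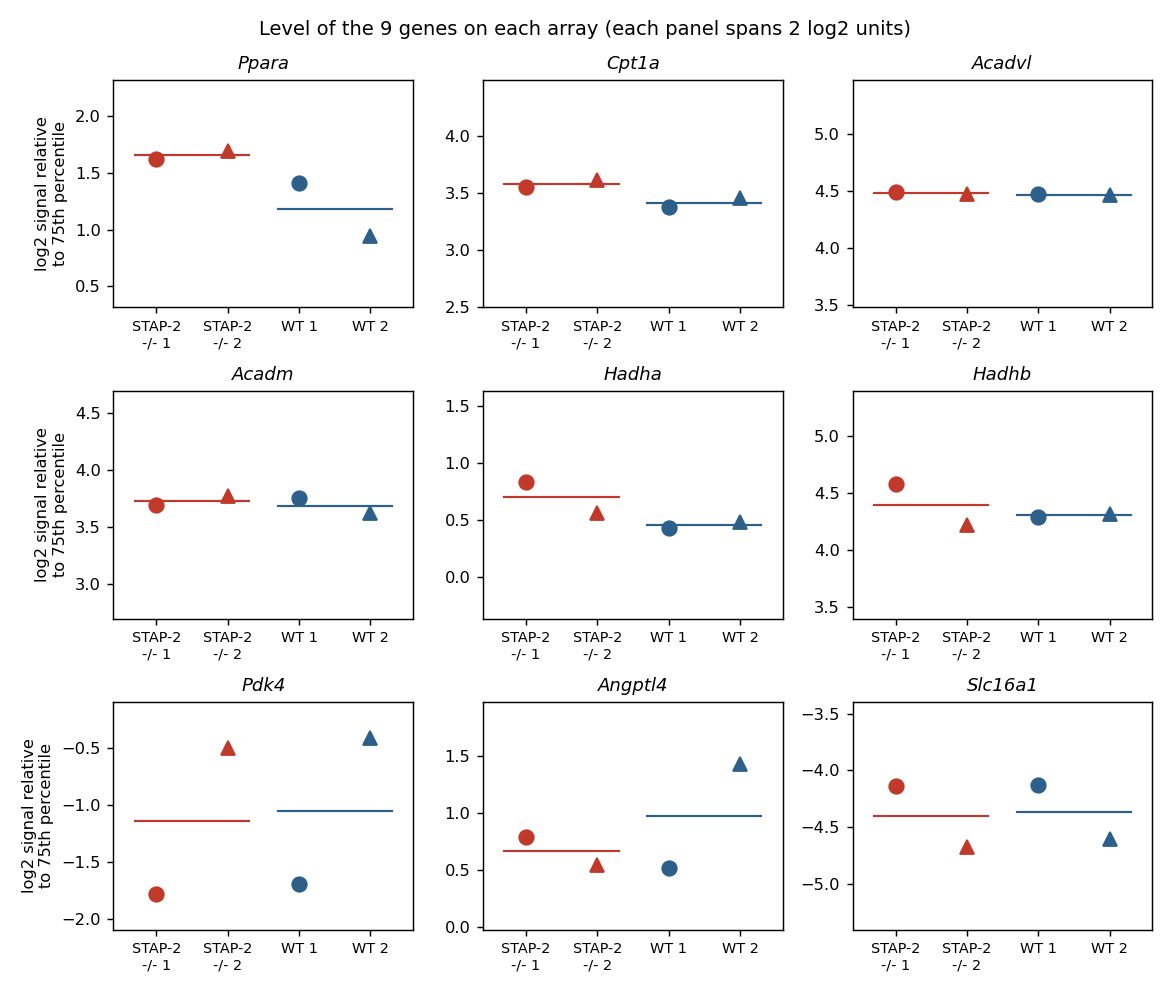
Log2 signal relative to the 75th percentile of each array (vertical axis) for the 9 genes on STAP-2-/- arrays (red) and WT arrays (blue), with circles for arrays numbered 1, triangles for arrays numbered 2 and lines at the genotype means (n = 2). Ppara, Cpt1a and Hadha lie higher on both STAP-2-/- arrays, Pdk4 is about 1.28 log2 units higher on both arrays numbered 2, and Angptl4 is high on WT 2.

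Ppara, which encodes PPAR-alpha, had log2 values of 1.62 and 1.69 in STAP-2-/- colons, against 1.41 and 0.94 in WT colons. Both STAP-2-/- arrays were higher than both WT arrays, and WT 2 was the lowest of the 4. Means were 1.65 ± 0.048 in STAP-2-/- colons and 1.18 ± 0.33 in WT colons (SD, n = 2 each). The difference was 0.48 (SE 0.21, 95% interval -0.11 to 1.06), with a limma adjusted p of 1 after rounding, as for all 9 genes. It was 0.24 without WT 2 and 0.71 without WT 1. Both other Ppara probes were also higher on average in STAP-2-/- colons, by 0.39 and 0.31. One of them gave -0.22 and 0.10 in STAP-2-/- colons, against -0.30 and -0.59 in WT colons, with no overlap. The other gave -1.04 and -1.57 in STAP-2-/- colons, against -1.33 and -1.91 in WT colons, and there the groups overlapped.

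Cpt1a encodes carnitine palmitoyltransferase 1A of the outer mitochondrial membrane, which controls the entry of long-chain fatty acids. Its values were 3.55 and 3.62 in STAP-2-/- colons, against 3.38 and 3.46 in WT colons, with no overlap. STAP-2-/- colons were 1.12-fold higher, a log2 difference of 0.17 (SE 0.13, 95% interval -0.20 to 0.53) with a limma adjusted p of 1. The dimmer Cpt1a probe read -0.16 and -0.22 in STAP-2-/- colons, against -0.43 and -0.57 in WT colons, a difference of 0.30. So both probes separated the genotypes in the same direction, and neither had a difference past the threshold.
The region around the Cpt1a start site is shown because the hexamer to which PPAR and other nuclear receptors bind, AGGTCA, lies in it. RefSeq sequences from 250 bases before to 50 bases after the start site (GRCm38.p6) were matched by symbol for 8 of the 9 genes. The hexamer was found on either strand in 3 of these 8 windows (Acadm, Acadvl and Cpt1a), against 16.3% of all 32851 windows. The pair of hexamers spaced by 1 base that PPAR prefers, AGGTCANAGGTCA, was found in 0 of the 8 and in 0.0396% of all windows. In the Cpt1a window (chr19:3323051-3323350, plus strand), the first capitals are the hexamer read on the opposite strand, from -94 to -89 relative to the start site, and the second are the CCAAT box, found on either strand in 37.4% of all windows, from -19 to -15.
Cpt1a: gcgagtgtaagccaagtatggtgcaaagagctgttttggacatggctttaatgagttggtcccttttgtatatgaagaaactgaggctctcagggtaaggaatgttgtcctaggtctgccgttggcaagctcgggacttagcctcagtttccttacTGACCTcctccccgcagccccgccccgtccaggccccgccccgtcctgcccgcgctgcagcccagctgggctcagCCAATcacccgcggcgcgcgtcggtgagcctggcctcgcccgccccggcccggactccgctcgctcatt
A match of letters is a description and no evidence of binding in these colons.

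Acadvl and Acadm, the very-long-chain and medium-chain acyl-CoA dehydrogenases that start each round of oxidation, were the steadiest of the 9. Acadvl stayed within 0.024 log2 units over the 4 arrays, at 4.49 and 4.48 in STAP-2-/- colons, against 4.47 and 4.47 in WT colons. Its genotype difference was 0.015 (95% interval -0.33 to 0.36), and it turned to -0.013 with normexp background correction. Acadm read 3.69 and 3.77 in STAP-2-/- colons, against 3.75 and 3.62 in WT colons, and the groups overlapped. Its difference was 0.045 (95% interval -0.33 to 0.42), and -0.019 without WT 2. With 2 arrays per genotype, true differences of the sizes within these intervals remain possible. The intervals are not limits of detection, since no gene in this fit, Stap2 included, passed the threshold.

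Hadha and Hadhb encode the alpha and beta subunits of the mitochondrial trifunctional protein, which carries out the later steps of long-chain oxidation. Hadha gave 0.84 and 0.57 in STAP-2-/- colons, against 0.43 and 0.48 in WT colons, with no overlap. Its log2 difference was 0.25 (SE 0.16, 95% interval -0.20 to 0.69; limma adjusted p = 1), at 0.38 without STAP-2-/- 2 and 0.11 without STAP-2-/- 1. Hadhb gave 4.58 and 4.22 in STAP-2-/- colons, against 4.30 and 4.32 in WT colons, a difference of 0.091 (95% interval -0.42 to 0.60) that was -0.091 without STAP-2-/- 1. Both subunits were highest on STAP-2-/- 1, by 0.41 and 0.29 over WT 1, whereas STAP-2-/- 2 differed from WT 2 by 0.086 for Hadha and -0.10 for Hadhb.
These genes lie head to head on chromosome 5, with start sites 273 bases apart in RefSeq GRCm38.p6, and their windows share 228 bases. The Hadhb window (chr5:30155003-30155302, plus strand) is shown for that reason, with the bases it shares with the Hadha window (chr5:30154931-30155230, minus strand) in capitals.
Hadhb: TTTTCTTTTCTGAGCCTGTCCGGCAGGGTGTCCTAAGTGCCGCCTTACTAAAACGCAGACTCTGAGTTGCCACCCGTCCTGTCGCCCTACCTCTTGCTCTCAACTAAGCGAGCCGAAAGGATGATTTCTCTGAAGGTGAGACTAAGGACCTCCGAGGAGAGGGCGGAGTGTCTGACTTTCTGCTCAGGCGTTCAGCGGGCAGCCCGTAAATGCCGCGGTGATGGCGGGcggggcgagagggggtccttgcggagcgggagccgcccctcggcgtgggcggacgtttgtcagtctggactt
Neither AGGTCA nor the CCAAT box was found in the windows of this gene pair.

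For Pdk4 and Slc16a1 the pools of each genotype lay farther apart than the genotype means did, and for Angptl4 1 WT array stood apart. Pdk4, the pyruvate dehydrogenase kinase that limits glucose oxidation when fatty acids are burned, is a PPAR target. It read -1.78 and -0.50 in STAP-2-/- colons, against -1.70 and -0.41 in WT colons. The genotype difference was -0.090 (95% interval -1.95 to 1.77), and it was 0.55 without WT 2 or without STAP-2-/- 1 and -0.73 without WT 1 or without STAP-2-/- 2. The fit held no term for the number, so its interval includes the difference between the numbers. At equal number, STAP-2-/- minus WT was -0.087 for the arrays numbered 1 and -0.093 for those numbered 2. Angptl4, a secreted inhibitor of lipoprotein lipase and also a PPAR target, was at 0.79 and 0.54 in STAP-2-/- colons, against 0.52 and 1.43 in WT colons. WT 2 was higher than the other 3 arrays, and the difference of -0.31 (95% interval -1.32 to 0.71) became 0.15 without it. Slc16a1, the monocarboxylate transporter MCT1 that carries butyrate and ketone bodies, was at -4.13 and -4.67 in STAP-2-/- colons, against -4.13 and -4.60 in WT colons. The genotype difference of Slc16a1, -0.036 (95% interval -0.83 to 0.76), turned to 0.23 without STAP-2-/- 2 and to 0.20 without WT 1. At equal number it was -0.0045 for the arrays numbered 1 and -0.068 for those numbered 2.

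**Figure D2:**
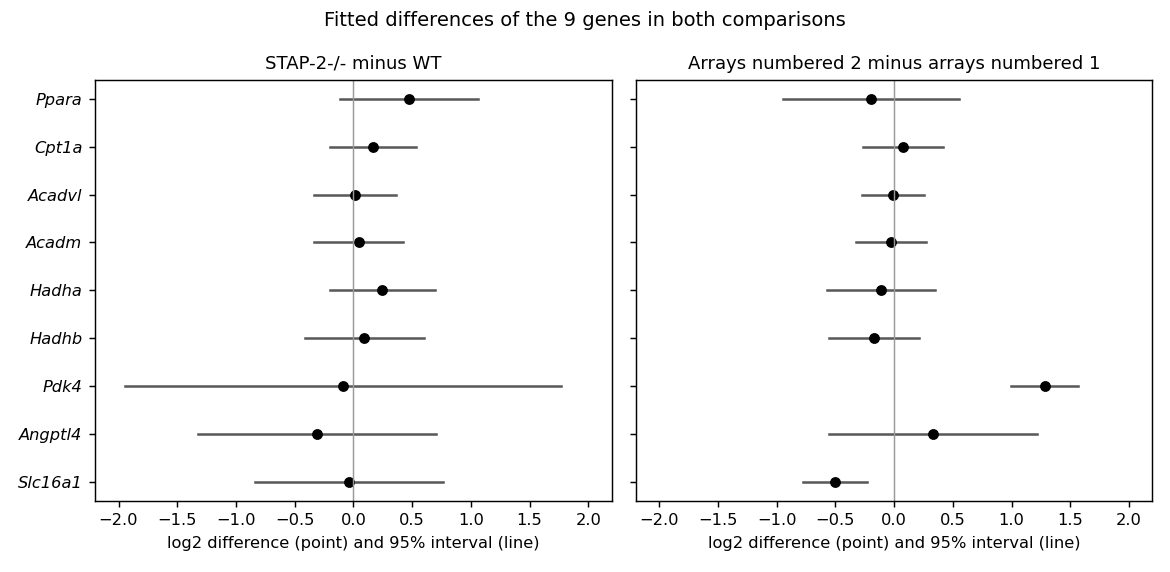
Log2 differences of the 9 genes (points) with 95% intervals from limma (lines), STAP-2-/- minus WT on the left and arrays numbered 2 minus arrays numbered 1 on the right (n = 2 arrays per group). All genotype intervals include 0, and the number intervals of Pdk4 (0.995 to 1.57) and Slc16a1 (-0.77 to -0.23) do not.

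The other genes of the pathway, 129 on the array in 9 lists and 125 of them tested, were examined in the same fit. In none of the lists did a member pass limma's test for genotype (0% of all genes passed). Of 19 other mitochondrial oxidation enzymes 13 were higher and 6 lower in STAP-2-/- colons, with a median of 0.024, against -0.016 with 9 higher and 10 lower after normexp correction, which also moved the median of all genes to -0.044. For the enzyme Acad11, 1 of these 19, the value of STAP-2-/- 2 was flagged and the fit used the other 3 arrays. Acads, the short-chain acyl-CoA dehydrogenase, gave 1.04 and 1.16 in STAP-2-/- colons, against 0.80 and 0.69 in WT colons, a difference of 0.35 (limma adjusted p = 1). The isomerase Eci1 differed by 0.25 and the short-chain hydroxyacyl-CoA dehydrogenase Hadh by 0.19, both with no overlap. In this list 4 genes were higher and 3 lower with no overlap, against 11.5% and 13.3% of all genes.
For the carnitine shuttle and the acyl-CoA synthetases the count was 8 higher and 6 lower, with a median of 0.042. Slc25a20, the carrier that exchanges acylcarnitines across the inner membrane, differed by 0.26 and the muscle isoform Cpt1b by 0.22, while the acetyl-CoA synthetase Acss1 differed by -0.25. The peroxisomal pathway had 10 of 16 genes on the higher side (median 0.058), and the thiolase Acaa1b, the reductase Decr2 and the thioesterase Acot4 differed by 0.33, 0.28 and 0.26. Among the receptors and coregulators 10 of 17 were higher (median 0.023, but -0.011 and 8 of 17 with normexp correction). The retinoid X receptors Rxra, Rxrb and Rxrg, the partners of PPAR-alpha, differed by 0.32, 0.22 and 0.11, the first and second with no overlap.
Other PPAR target genes, 18 of them tested, had 11 members higher and a median of 0.036, which was -0.010 with 9 higher after normexp correction. Creb3l3, a transcription factor that works with PPAR-alpha in the liver, had the widest genotype gap in these lists on the higher side, at -1.09 and -1.16 in STAP-2-/- colons, against -2.27 and -1.46 in WT colons. The uncoupling protein gene Ucp2 differed by 0.27 and the glycerol phosphate dehydrogenase Gpd1 by -0.22.

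Another 4 lists had a negative median difference between STAP-2-/- and WT colons, again with no member past the threshold. It was small for the ketone body list (-0.061) and the pyruvate dehydrogenase list (-0.029). Genes for the transport and sensing of short-chain fatty acids and other monocarboxylates were lower in 8 of 9 cases, with a median log2 difference of -0.39. The median lay between -0.40 and -0.38 under the other scalings and backgrounds, but the arrays of a genotype differed. With each gene centred on its mean, the list's median was -0.0082 on STAP-2-/- 1 and -0.18 on STAP-2-/- 2. It was 0.24 on WT 1 and 0.029 on WT 2. Hcar2, the receptor for butyrate and beta-hydroxybutyrate, read -4.60 and -4.07 in STAP-2-/- colons, against -3.74 and -3.32 in WT colons, a difference of -0.81 (unadjusted p = 0.0436, limma adjusted p = 1). The lactate exporter Slc16a3 differed by -0.57, also with no overlap, and the receptor Ffar3 by -0.28.
Lipoprotein lipase and its regulators were lower in 8 of 11 cases, with a median of -0.20. The lipase gene Lpl differed by -0.55 and the angiopoietin-like genes Angptl7 and Angptl1 by -0.49 and -0.39, all with overlapping groups. Ketone body genes were lower in 5 of 9 cases, with a median of -0.061. The transporter Slc16a7 (MCT2) and the dehydrogenase Bdh2 differed by -0.54 and -0.12, each without overlap. Around pyruvate dehydrogenase 8 of 12 genes were lower (median -0.029). The phosphatase Pdp1, which reverses the action of the kinases, differed by -0.37, the kinase Pdk2 by 0.20 and the enzyme subunit Pdha1 by 0.13.

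**Figure D3:**
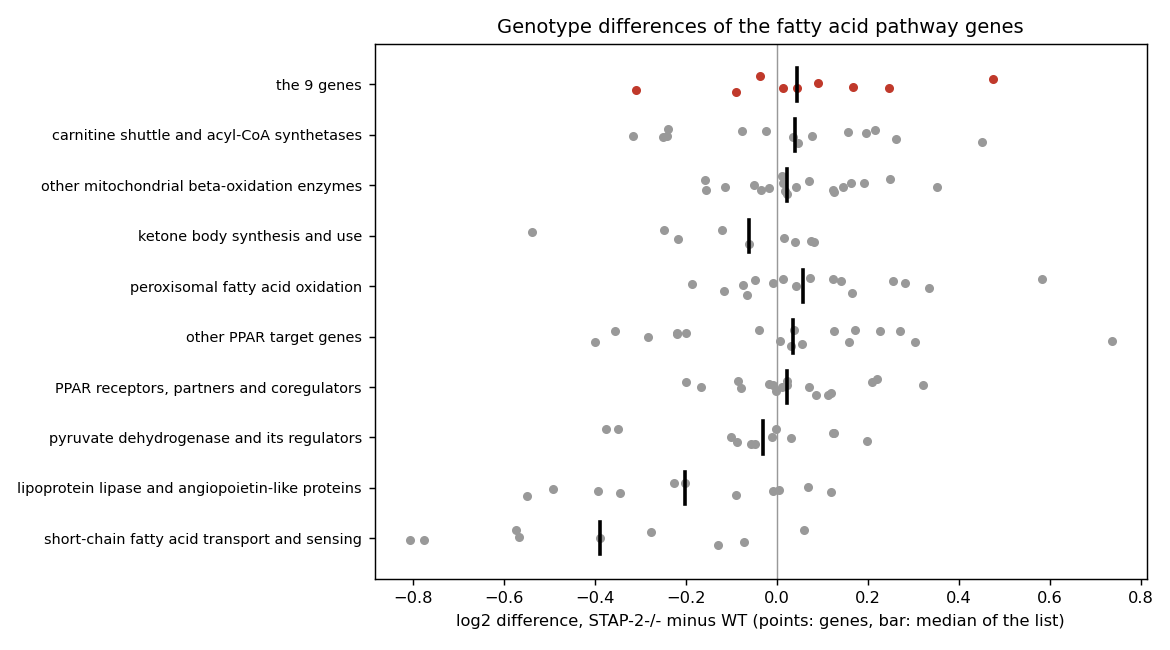
Log2 difference between STAP-2-/- and WT colons (horizontal axis) for each tested gene of the 9 genes (red) and of the 9 other pathway lists (grey), with a bar at the median of each list. Most medians lie within 0.061 of 0, and those of the lipoprotein lipase list (-0.20) and the short-chain fatty acid list (-0.39) lie lower.

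Markers of other tissues also differed between the genotypes. All 9 smooth muscle markers were lower in STAP-2-/- colons (sums of 302 to 311, against 348 to 357 in WT colons), and 11 of 12 tested adipocyte markers were lower, with a median of -0.61. The summed signal of the adipocyte markers, in units of the 75th percentile, was 45.4 to 65.9 in STAP-2-/- colons, against 68.4 to 106 in WT colons. Adipocytes also express Angptl4, Lpl, Pdk4 and Hcar2, and Lipe and Cidec stand both among the markers and in the pathway lists, as does the epithelial marker Slc26a3. Summed colonic epithelium markers were at 833 to 933 in STAP-2-/- colons, against 812 to 913 in WT colons, and summed skeletal muscle markers at 2.35 to 2.59 in STAP-2-/- colons, against 2.38 to 2.49 in WT colons. Summed myeloid and lymphoid markers were at 21.7 to 24.4 in STAP-2-/- colons, against 24.6 to 25.8 in WT colons. The brown-fat gene Ucp1 and the fast myosin genes Myh1 and Myh4 were not well above background on any array. In whole colon RNA, fewer cells of a type and less RNA per cell cannot be told apart, and the part of these markers in the values above was not tested.

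Between the numbers, Pdk4 was higher and Slc16a1 lower on the arrays numbered 2 in both genotypes. Pdk4 read -0.50 in STAP-2-/- 2 and -0.41 in WT 2, against -1.78 in STAP-2-/- 1 and -1.70 in WT 1. The arrays numbered 2 were 2.43-fold higher, by 1.28 log2 units in STAP-2-/- colons and by 1.29 in WT colons. Means were -0.46 ± 0.066 on the arrays numbered 2 and -1.74 ± 0.061 on those numbered 1 (SD, n = 2 each). The fitted difference was 1.28 (SE 0.11, 95% interval 0.995 to 1.57), with an unadjusted p of 0.000164 and a limma adjusted p of 0.0872. Its adjusted p was 0.0568 to 0.254 over the alternatives, so Pdk4 did not pass under any of those run. That adjusted p was also the lowest of any gene in this comparison, shared by 176 genes, and 0 of 15560 genes (0%) passed, while 3943 (25.3%) had an unadjusted p under 0.05. Only 2.30% of all genes had a larger absolute difference between the numbers than Pdk4.
Slc16a1 read -4.67 in STAP-2-/- 2 and -4.60 in WT 2, against -4.13 in STAP-2-/- 1 and -4.13 in WT 1. It was lower on the arrays numbered 2 in both genotypes, by a fitted 0.50 log2 units (-0.50, SE 0.10, 95% interval -0.77 to -0.23; unadjusted p = 0.00591, limma adjusted p = 0.117, 0.0987 to 0.388 over the alternatives).
Windows of these genes are shown because they are the members with no overlap between the numbers. In the Pdk4 window (chr6:5496229-5496528, minus strand) the capitals are the CCAAT box read on the opposite strand, from -131 to -127. In the Slc16a1 window (chr3:104638414-104638713, plus strand) they are the E-box CACGTG, which reads alike on both strands, from -200 to -195, a motif in 7.15% of all windows.
Pdk4: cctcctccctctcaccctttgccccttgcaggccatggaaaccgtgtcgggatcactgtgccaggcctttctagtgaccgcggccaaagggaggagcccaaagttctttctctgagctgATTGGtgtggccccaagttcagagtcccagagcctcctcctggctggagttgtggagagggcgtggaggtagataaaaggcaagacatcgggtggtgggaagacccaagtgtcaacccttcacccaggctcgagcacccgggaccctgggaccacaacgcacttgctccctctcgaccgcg
Slc16a1: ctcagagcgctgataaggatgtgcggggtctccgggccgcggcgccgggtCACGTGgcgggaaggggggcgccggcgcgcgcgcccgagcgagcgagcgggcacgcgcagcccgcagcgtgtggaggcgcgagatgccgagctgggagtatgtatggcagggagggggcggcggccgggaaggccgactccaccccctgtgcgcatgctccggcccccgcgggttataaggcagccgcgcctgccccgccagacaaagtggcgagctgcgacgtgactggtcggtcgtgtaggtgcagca
AGGTCA was found in neither window, which says only that these letters are absent from the bases shown.

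The remaining 7 genes overlapped between the numbers. Over all genes 62.4% had no overlap between the numbers, 26.4% higher and 36.0% lower on the arrays numbered 2, so 2 of 9 is a smaller share than the background. Acadvl joined them on the higher side with quantile and median scaling and with the percentile over probes above background. In all, 3 of the 9 were higher on the arrays numbered 2 and 6 lower, with a median of -0.027, against -0.041 for all genes, and their median was 0.061 with quantile scaling and 0.067 with median scaling, each with 5 of 9 higher. The median of all genes was then 0.013 and 0.053, so it also moved above 0. Cpt1a differed by 0.074 (95% interval -0.27 to 0.41) and Hadhb by -0.17 (-0.55 to 0.21), the second at -0.026 without STAP-2-/- 1 and -0.31 without WT 1. The pools of Angptl4 went opposite ways, with STAP-2-/- 2 minus STAP-2-/- 1 at -0.25 and WT 2 minus WT 1 at 0.91. For Ppara the pools of STAP-2-/- colons differed by 0.068 and those of WT colons by -0.47.

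**Figure D4:**
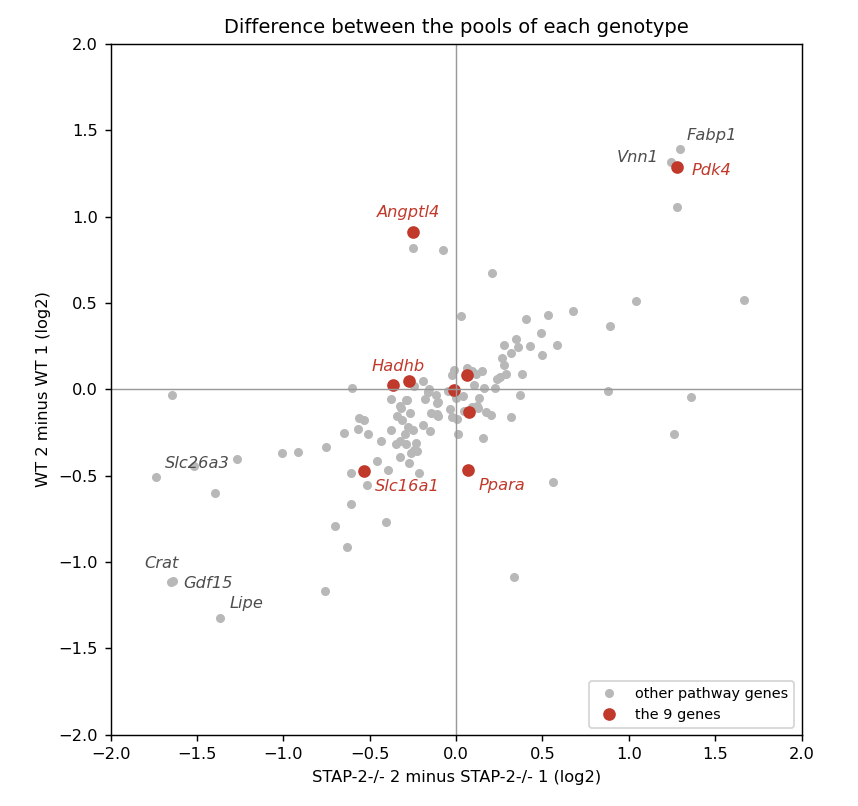
Log2 difference between the pools of STAP-2-/- colons (horizontal axis) and of WT colons (vertical axis), each as array 2 minus array 1, for the 9 genes (red) and the 124 other tested pathway genes with a value on all 4 arrays (grey). Pdk4 lies with Vnn1 and Fabp1 at the upper right, Slc16a1 is below 0 on both axes, and Angptl4 is above 0 in WT only.

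Some known PPAR-alpha targets lay where Pdk4 did, and others did not. Vnn1, the pantetheinase vanin-1, read -0.63 in STAP-2-/- 2 and -0.65 in WT 2, against -1.87 in STAP-2-/- 1 and -1.96 in WT 1, a difference of 1.28 (limma adjusted p = 0.0872). Fabp1, the liver fatty acid-binding protein, differed by 1.34 (limma adjusted p = 0.0935), at -3.04 in STAP-2-/- 2 and -2.63 in WT 2, against -4.33 in STAP-2-/- 1 and -4.02 in WT 1. Neither passed the threshold. The peroxisomal genes Acox2 and Ehhadh were likewise higher on both arrays numbered 2, by 0.56 and 0.34.
The PPAR target list as a whole did not lean to the same side, with 7 of 18 tested genes higher and a median of -0.062, which was 0.0075 and 0.032, with 9 of 18 higher, with quantile and median scaling. Gdf15, a stress-induced cytokine, was lower on the arrays numbered 2 by 1.38 log2 units (-1.38, limma adjusted p = 0.0892). The targets Fgf21 and Cyp4a14 were not well above background on any array.
Ketone body genes were mixed, with 5 of 9 higher and a median of 0.012. The thiolase Acat1 and the ketone-using transferase Oxct1 differed by -0.27 and -0.36, both with no overlap.

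Among 19 other mitochondrial oxidation enzymes 15 were lower on the arrays numbered 2, with a median of -0.082, against 7 lower and a median of 0.012 with median scaling. The propionyl-CoA carboxylase subunits Pccb and Pcca differed by -0.44 and -0.35 and the dehydrogenase Acad10 by -0.31. In the carnitine and synthetase list 9 of 14 were lower, with a median of -0.16. Crat, the carnitine acetyltransferase, read -5.48 in STAP-2-/- 2 and -5.67 in WT 2, against -3.85 in STAP-2-/- 1 and -4.56 in WT 1, a difference of -1.37 (limma adjusted p = 0.115), and the synthetases Acsm3 and Acsl1 differed by -0.999 and -0.75.
Ppargc1a, the coactivator that drives mitochondrial gene programmes together with Esrra, was lower in both genotypes, at 0.73 in STAP-2-/- 2 and 0.70 in WT 2, against 1.25 in STAP-2-/- 1 and 1.25 in WT 1. Its difference was -0.54 (limma adjusted p = 0.112), that of Esrra -0.37 and that of the mediator subunit Med1 -0.33, within a list in which 11 of 17 genes were lower (median -0.13). In the pyruvate dehydrogenase list 9 of 12 were lower (median -0.22), with Pdp2 and Dlat at -0.98 and -0.45, and Pdk3 at 0.30.

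The peroxisomal list was even, with 8 of 16 higher and a median of 0.045 that turned to -0.0069 with normexp correction. For lipoprotein lipase and its regulators 6 of 11 were lower (median -0.28). Lipe, the hormone-sensitive lipase of fat cells, differed by -1.34 (limma adjusted p = 0.0872), Angptl2 by -0.55 and the monoglyceride lipase Mgll by 0.78. Among the transporters and sensors 5 of 9 were lower (median -0.29). The chloride and bicarbonate exchanger Slc26a3 differed by -1.12, Slc16a8 by -0.29 and Emb, a partner protein of monocarboxylate transporters, by 0.41.

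Tissue markers differed between the numbers too. Adipocyte markers were lower on the arrays numbered 2 in 11 of 12 cases (median -0.68), with sums of 45.4 and 68.4, against 65.9 and 106 on the arrays numbered 1. Pdk4, which adipocytes also express, was higher on the arrays numbered 2, and whether these differences are related was not tested. Of 8 myeloid and lymphoid markers, 6 were higher (median 0.39), with single differences from -0.41 to 3.76 log2 units. With no overlap, 5 were higher and 1 lower, against 26.4% and 36.0% of all genes. Their sum, in which bright genes weigh most, was lower on the arrays numbered 2 in both genotypes. It was 21.7 in STAP-2-/- 2 and 24.6 in WT 2, against 24.4 in STAP-2-/- 1 and 25.8 in WT 1. The epithelial sum was 812 to 833 on the arrays numbered 2, against 913 to 933 on those numbered 1. Of 8 tested skeletal muscle markers 6 were lower on the arrays numbered 2 (median -0.43, from -2.86 to 0.18). Their summed signal was 2.35 in STAP-2-/- 2 and 2.38 in WT 2, against 2.59 in STAP-2-/- 1 and 2.49 in WT 1. Smooth muscle markers were mixed, with 5 of 9 lower (median -0.033). The part of these markers in the number differences was not tested.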

How the data were processed

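RNA of pooled colons was measured on 4 arrays. Scanner files deposited by the authors give an intensity per spot, the processed signal, which had background and spatial trend removed per the file headers, and were made with Agilent Feature Extraction 10.7.1.1, per the submitters' processing notes. The deposited value table is a ratio, the processed signal over 1 constant per array (within 1% for 99.97% or more of the probes compared, with column medians of 0.084 to 0.091), and served as an alternative.

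Control spots were left out and 129 to 190 outlier-flagged spots per array were set missing. Spots of a probe were averaged on the log2 scale after subtracting the 75th percentile. No spot was saturated. Of 39429 probes, 27427 were named through their accession (RefSeq, GRCm38.p6), while the array design uses mm9, so no gene coordinates are carried over. A gene was tested when both arrays of either genotype showed it well above background. The test was that of limma 3.58.1 (R 4.3.3; lmFit and eBayes, no covariate, Benjamini-Hochberg over all genes, threshold 0.05), for genotype and for number. One gene had no genotype value. All adjusted p-values come from limma. The fit was tested on simulated data. Files were read in Python 3.11.15 and figures drawn with matplotlib 3.10.9.

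Named pathway genes are the 3 per list with the smallest unadjusted p in each comparison, apart from some that are not reported here, and other names were chosen after their values were seen. Of 193 list symbols 190 were on the array. The members and lists were chosen with earlier results of these data known. Precision is limited by 2 arrays per genotype. Alternatives covered scaling, background (normexp, offset 50, on median spot signals, as the files hold no mean), the value table, filters, flagged spots, probe averaging, the variance model, the number or genotype as a term, and each array left out.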

Additional observations from a re-analysis of the deposited data

Results flagged for a closer look

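In 5 of the 9 genes the difference between array 2 and array 1 had opposite signs in the genotypes. The share of all genes with opposite signs was not counted. With 1 array of each number per genotype, the difference between the genotypes in this respect was not tested. For Angptl4 it was -0.25 in STAP-2-/- colons and 0.91 in WT colons (log2, array 2 minus array 1). For Ppara it was 0.068 in STAP-2-/- colons and -0.47 in WT colons. Acadm gave 0.075 in STAP-2-/- colons and -0.13 in WT colons. The subunit genes moved alike, with -0.27 in STAP-2-/- colons and 0.047 in WT colons for Hadha, and -0.36 in STAP-2-/- colons and 0.026 in WT colons for Hadhb. These WT values are about as small as the median SD between repeated spots of a probe, 0.047 to 0.051 per array, or smaller.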

How the results depend on the processing

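Of 270 values of single genes under an alternative, 249 kept their direction and 21 reversed. The filters, the variance model and an added term cannot change the difference of a member, nor can probe averaging for a gene with 1 probe. Those values could not reverse, so the count of 249 is no measure of stability. No gene of the 9 passed the threshold in the main fit or under an alternative. Where a difference reversed, the cause was not tested. With quantile and median scaling the number difference was 0.070 and 0.067 for Acadm, and 0.061 and 0.084 for Acadvl, which was 0.014 with the percentile over probes above background. With normexp correction the genotype difference of Acadvl was -0.013, and with the mean of all probes the number difference of Cpt1a was -0.013. With 1 array left out, genotype differences ran from -0.019 to 0.11 for Acadm, from -0.77 to 0.15 for Angptl4, from -0.091 to 0.27 for Hadhb, from -0.73 to 0.55 for Pdk4 and from -0.30 to 0.23 for Slc16a1. Number differences then ran from -0.10 to 0.047 for Acadm, from -0.11 to 0.78 for Angptl4, from -0.015 to 0.16 for Cpt1a, from -0.32 to 0.090 for Hadha and from -0.57 to 0.17 for Ppara.

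The median of the 9 genes by genotype was 0.083 to 0.15 with 1 array left out. By number it was 0.061 and 0.067 with quantile and median scaling and -0.10 to -0.00024 with 1 array left out. Genes past the threshold by genotype numbered 1 with normexp correction (Stap2), and by number 0 to 1 with 1 array left out (Six2, without WT 1). With the number as a replicate block, 0 genes passed by genotype, 1041 instead of 326 had an unadjusted p under 0.05, and the members' median was 0.045. Deviations of arrays of equal number correlated by 0.596 across genes, but the labels do not say that the number pairs pools. The sets of genes with no overlap were recounted under alternatives chosen after seeing the data.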
